A study of Mus musculus with 57 samples.

Results

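Sarcomere and Z-disc genes code for the contractile lattice of striated muscle. The set described here holds 46 genes out of 26089 RefSeq genes of the mouse build mm10, chosen by function and with the myosin heavy chains left out: 16 genes of the thin filament, 7 of the thick filament, 7 of the M-band and titin, 14 of the Z-disc and 2 of the intermediate filaments and their chaperone. Chromatin of these genes was compared between brain cortex and gastrocnemius muscle of 13-month-old PSAPP mice, which carry transgenes for a mutated human presenilin and a mutated chimeric mouse and human amyloid precursor protein, and serve as a model of Alzheimer's disease. Every mouse carried both transgenes and ate a modified AIN-93 diet in a fixed daily ration, so the contrast is between tissues and not between genotypes or diets. Chromatin immunoprecipitation with sequencing (ChIP-seq) of H3K4me3, H3K27ac and H3K27me3 gave 9 cortex and 10 gastrocnemius libraries for each mark, 57 in all, from 10 mice.

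H3K4me3 marks the start of transcribed genes and H3K27ac marks active promoters and enhancers, whereas H3K27me3 is laid down by Polycomb repressive complex and marks silenced genes. In a sarcomere, thin filaments of actin, tropomyosin and troponin slide along thick filaments of myosin, the Z-disc anchors the thin filaments, and titin spans from the Z-disc to the M-band. Most of these proteins exist as isoforms, and the gastrocnemius is a mixed muscle dominated in mice by fast fibers.

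Peaks had been called in each library apart, so the number of libraries with a peak within 1 kb of a transcription start site (TSS) was the value that every library had. Levels are given as RPM, the reads of called peaks within 1 kb either side of the TSS, scaled to 1000000 (1 M) reads in autosomal peaks. A library without a peak lists no reads, which is not a measured level of 0, although it enters a mean as 0. Reads in peaks ranged from 9.16 to 19 M for H3K4me3, from 3.94 to 27.3 M for H3K27ac and from 2.99 to 18.2 M for H3K27me3. Cortex replicate 9 of H3K27ac was the shallow library of its mark and gastrocnemius replicate 5 of H3K27me3 the deep one. The neuron markers checked the tissue label: 8 of 8 had H3K4me3 at the TSS in at least 5 of 9 cortex libraries, and Snap25, Camk2a, Gad1 and Rbfox3 had none in the 10 gastrocnemius libraries. The other 4 markers, Syt1, Slc17a7, Stmn2 and Nrgn, also had it in 10 of 10 gastrocnemius libraries, at 5.14 to 10.3 RPM against 20.1 to 33.4 in cortex. Tissue was frozen whole, so a smaller share of marked cells and less mark per cell cannot be told apart.

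In gastrocnemius the sarcomere genes carried both active marks almost without exception. H3K4me3 lay at the TSS of 44 of 46 genes in at least 5 of 10 libraries and at 40 of them in every library, which is 87.0% against 55.7% of all genes. H3K27ac lay at 45 of 46 in every library (97.8% against 56% of all genes). H3K27me3 lay at 4 genes in at least 5 of 10 (8.70% against 24.1%). In cortex 27 genes (58.7% against 37.9% of all genes) had no H3K4me3 peak in any library and 15 (32.6% against 30.6%, close to the share of all genes) had no H3K27ac peak in any. Further, 26 had H3K27me3 in at least 5 of 9 libraries, which is 56.5% against 22.9% of all genes. By library, between 41 and 44 of the genes had an H3K4me3 peak in gastrocnemius and between 13 and 17 in cortex. These libraries held 21309 to 29749 H3K4me3 peaks in gastrocnemius and 19082 to 24747 in cortex. The share of all genes marked in each single library was not set beside these counts.

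Fisher's exact test on these library counts, two-sided and adjusted by Benjamini-Hochberg over all genes with a peak (threshold 0.1), called 27 of the 45 sarcomere genes tested for H3K4me3 as more often marked in gastrocnemius and 0 as more often in cortex. Over all 17248 genes tested, 3.38% were called in the first direction and 5.11% in the second. For H3K27ac the test called 21 of 46 toward gastrocnemius, against 4.26% of 19096 genes, and 0 toward cortex, against 9.45%. For H3K27me3 it called 20 of 35 toward cortex, against 9.92% of 11687 genes, and 0 toward gastrocnemius, against 12.2%. In each of these directions without a call, the same test also gave 0 genes at an unadjusted p under 0.05. Pairing the tissues of the 9 mice that gave both, as a replicate block in an exact McNemar test, left 21 calls for H3K4me3 (324 of 17229 genes in that direction), 15 for H3K27ac (445 of 19080) and 12 for H3K27me3 (445 of 11391). Without the shallow H3K27ac library 18 genes were called, and without the deep H3K27me3 library 18.

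**Figure D1:**
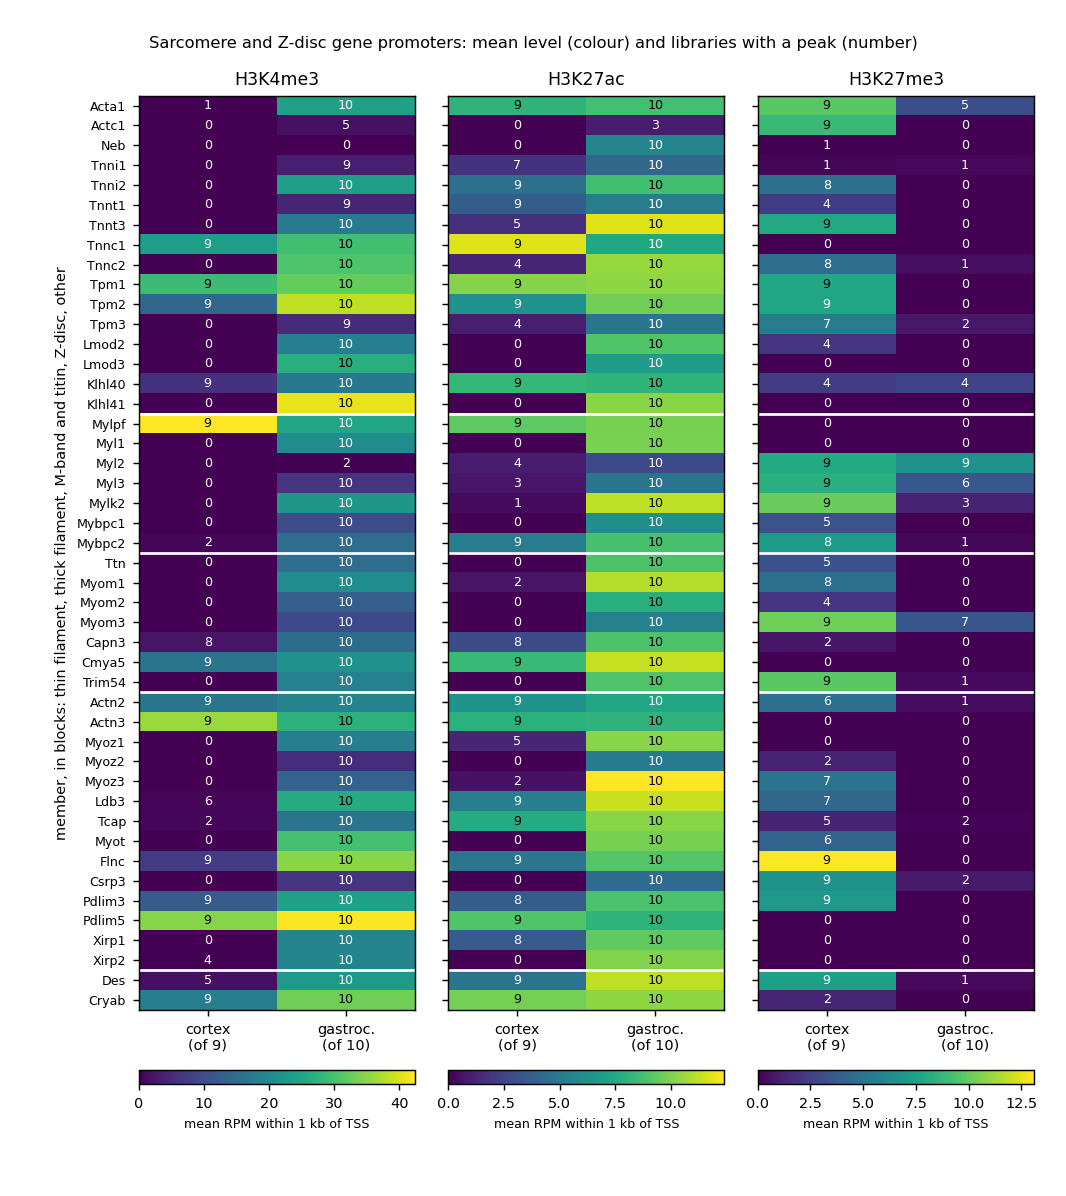
Heat map of mean RPM within 1 kb of the TSS (colour, with a scale for each mark) for the 46 genes in blocks by role, in cortex (9 libraries) and gastrocnemius (10 libraries); the number in each cell counts the libraries with a peak. In gastrocnemius the median gene stood at 18.9 RPM for H3K4me3 against 10.2 over all genes, while 27 genes had no cortex peak in any library.

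Promoters of the set ranged widely in CpG content, and 6 are shown as examples. The following 150-base stretches end at the base before the TSS, run 5′ to 3′ on the strand of the gene, and have each CpG in capitals. Klhl41, Xirp2, Acta1 and Actc1 stand for genes with H3K4me3 in fewer than 5 cortex libraries, and Flnc and Pdlim5 for genes with it in all 9. They come from RefSeq, build GRCm38.p6, at chr2:69669970-69670119 (+), chr2:67445852-67446001 (+), chr8:123894776-123894925 (-), chr2:114052876-114053025 (-), chr6:29433003-29433152 (+) and chr3:142395697-142395846 (-), in that order.
Klhl41: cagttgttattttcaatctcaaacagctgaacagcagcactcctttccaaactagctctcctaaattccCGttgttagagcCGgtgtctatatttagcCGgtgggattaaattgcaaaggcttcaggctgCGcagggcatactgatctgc
Xirp2: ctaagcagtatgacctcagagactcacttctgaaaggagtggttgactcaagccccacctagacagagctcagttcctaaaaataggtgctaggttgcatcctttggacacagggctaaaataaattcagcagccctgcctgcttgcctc
Acta1: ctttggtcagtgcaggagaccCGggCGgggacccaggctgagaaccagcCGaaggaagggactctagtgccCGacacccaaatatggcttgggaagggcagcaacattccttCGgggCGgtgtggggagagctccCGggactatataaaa
Actc1: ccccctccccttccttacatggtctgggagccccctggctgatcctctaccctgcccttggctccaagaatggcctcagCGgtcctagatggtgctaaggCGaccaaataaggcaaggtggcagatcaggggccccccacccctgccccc
Flnc: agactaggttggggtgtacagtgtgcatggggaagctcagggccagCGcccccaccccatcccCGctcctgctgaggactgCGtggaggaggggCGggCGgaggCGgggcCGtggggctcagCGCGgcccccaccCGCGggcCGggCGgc
Pdlim5: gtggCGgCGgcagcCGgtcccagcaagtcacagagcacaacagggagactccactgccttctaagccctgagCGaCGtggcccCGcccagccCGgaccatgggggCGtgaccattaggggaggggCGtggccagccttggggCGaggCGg
The stretch of Xirp2 held 0 CpG, that of Actc1 2, that of Klhl41 4 and that of Acta1 7. Pdlim5 had 11 and Flnc 13. Flnc and Pdlim5 are among the CpG-rich promoters of the set, and Tnnc1, Ldb3 and Capn3, which cortex also marked, had only 17, 26 and 29 CpG within 1 kb either side of the TSS.

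Within 1 kb either side of the TSS, the 15 sarcomere genes with cortex H3K4me3 in at least 5 libraries had 17 to 126 CpG with a median of 66. The other 31 had 10 to 46 with a median of 27. Over all 26089 genes the medians were 87 with cortex H3K4me3 and 19 without, so the sarcomere genes were divided in the same direction as the genome. Among the 31, the 19 genes with cortex H3K27me3 in at least 5 libraries had a median of 32 CpG and the 6 genes without it in any library had 27.5. These are descriptions with no test.

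**Figure D2:**
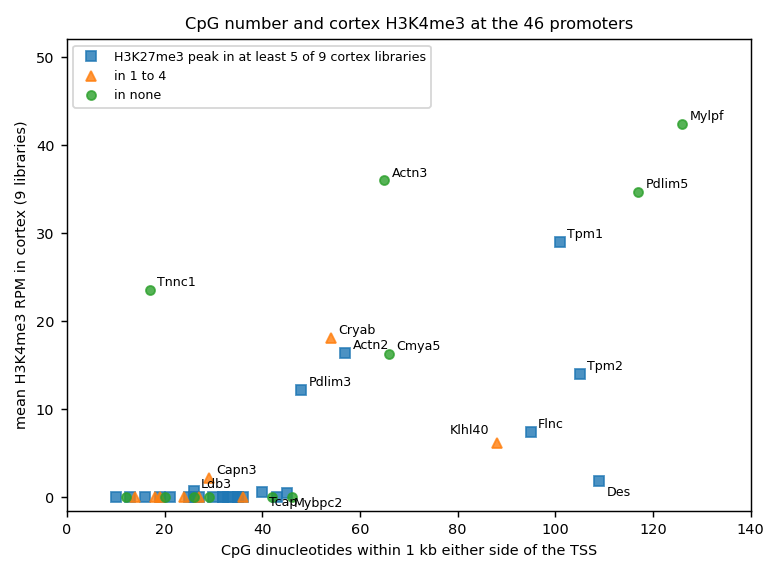
CpG count within 1 kb either side of the TSS (x axis) against mean cortex H3K4me3 RPM (y axis) for the 46 genes. Symbols tell in how many cortex libraries H3K27me3 had a peak. Tnnc1 sits alone at 17 CpG and 23.6 RPM, Mylpf lies farthest out at 126 CpG and 42.4 RPM, and genes with cortex H3K4me3 in fewer than 5 libraries end at 46 CpG.

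Promoter sequences of 250 bases upstream were at hand for 32 of the 46 genes and 19064 genes in all. The MEF2 motif was found on either strand in 6 of the 32 (18.8%) against 1.66% of all, namely in Capn3, Klhl41, Myom3, Myoz2, Ttn and Xirp2. In the stretches above it reads CTATATTTAG at position -63 of Klhl41 and CTAAAAATAG at -74 of Xirp2, counted from the TSS to the first base of the match. The CArG box, the motif of serum response factor, was in 5 (15.6%) against 1.41%, as CCAAATATGG at -73 of Acta1 and CCAAATAAGG at -47 of Actc1, and also in Ldb3, Myl3 and Myom1. The MCAT motif, CATTCC on either strand, was in 8 (25%) against 11.7%, and the E-box, CANNTG, in 29 (90.6%) against 63.5%; the searches were made apart and matches may overlap. A match describes the letters and not the binding of a factor. The shares were not matched for base composition. The 46 genes had a median of 32.5 CpG within 1 kb either side of the TSS, against 56 over all genes.

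The thin filament genes had 10 of 15 tested called toward gastrocnemius for H3K4me3 and 6 of 16 for H3K27ac. Over all genes tested these shares were 3.38% and 4.26%. Skeletal actin, Acta1, had H3K4me3 of 18.6 to 33.9 RPM over the 10 gastrocnemius libraries with a median of 23.0, and a peak in 1 cortex library at 0.157 RPM (adjusted p = 0.00193, Fisher's exact test). All 10 gastrocnemius libraries were above the cortex library that had a peak. At the same promoter H3K27ac was present in every library of both tissues, with 8.05 ± 1.25 RPM in cortex and 8.70 ± 1.66 in gastrocnemius (SD, n = 9 and 10). With TMM scaling edgeR called it 1.32-fold higher in gastrocnemius (log2 0.40 ± 0.09 SE, adjusted p = 0.00121), a call that was lost with library size alone (log2 0.12). Cardiac actin, Actc1, is the isoform of heart and developing muscle. It had an H3K4me3 peak in 5 of 10 gastrocnemius libraries, from 2.65 to 5.11 RPM, and in 0 of 9 in cortex (adjusted p = 0.302, Fisher's exact test).

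The fast troponin genes Tnni2, Tnnt3 and Tnnc2, whose products make up the calcium switch of fast fibers, had H3K4me3 in 10 of 10 gastrocnemius and 0 of 9 cortex libraries. Their means were 23.7 ± 5.44, 17.4 ± 2.81 and 30.7 ± 6.18 RPM (SD, n = 10). The slow genes Tnni1 and Tnnt1 had it in 9 of 10 gastrocnemius libraries, at 3.62 ± 1.86 and 4.42 ± 2.06 RPM, and in 0 of 9 in cortex. Gastrocnemius replicate 4 was the library without a peak at either. Tnni2 and Tnnt3 thus stood above their slow partners in level although both kinds were marked in nearly every library.

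Tnnc1, the troponin C of slow and cardiac muscle, was unlike the other troponins in that cortex carried both active marks. Its H3K4me3 in cortex was 13.6, 24.7, 13.5, 21.1, 29.2, 16.5, 10.8, 43.6 and 39.1 RPM, and in gastrocnemius it ran from 18.2 to 38.9 with a median of 30.6. The tissues overlapped, and edgeR's quasi-likelihood test gave a log2 fold change of 0.60 ± 0.20 (SE) toward gastrocnemius (adjusted p = 0.0134). With peaks counted whole, and not by the part inside the window, that log2 change was -0.01, and within 2.5 kb either side of the TSS it was 0.05 and lost the call. H3K27ac at Tnnc1 went toward cortex by a log2 fold change of -0.34 ± 0.14 (adjusted p = 0.0545), a call that was lost with the mouse as a block, where the log2 change was -0.30, and that turned to 1.21 with whole peak counts. The TSS of Nisch lies 1486 bases away on the opposite strand. Over the gene body of Tnnc1, H3K4me3 covered 4.77% in cortex and 59.4% in gastrocnemius.

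The tropomyosin genes Tpm1 and Tpm2, which wind along actin and also serve smooth muscle and other cells, were marked in every library of both tissues. Tpm2 rose 3.40-fold in gastrocnemius (log2 1.77 ± 0.13 SE, adjusted p = 1.25e-12), from 10.1 to 18.1 RPM in cortex to 28.7 to 48.9 in gastrocnemius, so that no library overlapped. Tpm1 rose 1.39-fold (adjusted p = 0.00032), with 22.4 to 35.8 RPM in cortex and 25.6 to 36.1 in gastrocnemius. At the upstream TSS of Tpm3, the slow isoform, H3K4me3 was found in 9 of 10 gastrocnemius and 0 of 9 cortex libraries. The gastrocnemius level there was 5.06 ± 3.99 RPM (SD, n = 10). A second TSS at position 90079521 of chromosome 3 carried 26.5 RPM in cortex and 17.6 in gastrocnemius.

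Klhl41 and Klhl40 code for Kelch proteins that keep nebulin and the thin filament stable. Klhl41 had the second highest H3K4me3 level of the set in gastrocnemius, from 29.4 to 54.9 RPM with a median of 41.9, and no peak of any mark within 1 kb of the TSS in any cortex library. Klhl40 had H3K4me3 in all 9 cortex libraries at 6.12 ± 1.30 RPM and rose 3.50-fold to 17.1 ± 3.49 in gastrocnemius (adjusted p = 3.72e-11). Lmod2 and Lmod3, the leiomodins that start actin filaments, had H3K4me3 and H3K27ac in 10 of 10 gastrocnemius and 0 of 9 cortex libraries, with H3K4me3 at 18.2 ± 3.10 and 26.6 ± 4.92 RPM.

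Nebulin, Neb, the giant ruler protein of the thin filament, had no H3K4me3 within 1 kb of its TSS in any library. In all 10 gastrocnemius libraries the nearest peak began 1398 to 2198 bases downstream of the TSS, was 9200 to 19400 bp wide and held 52.3 to 165.0 RPM over its whole width. H3K27ac covered the TSS itself in 10 of 10 gastrocnemius libraries at 5.66 ± 1.94 RPM. In cortex neither active mark had a peak within 1 kb.

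The thick filament genes had 5 of 7 called toward gastrocnemius for H3K4me3 and 5 of 7 for H3K27ac, against 3.38% and 4.26% of all genes. Myl1, the fast essential light chain, had H3K4me3 at 20.7 ± 5.61 RPM and Myl3, the slow and ventricular one, at 6.40 ± 1.84, both in 10 of 10 gastrocnemius libraries and 0 of 9 in cortex. Mylk2, the kinase of the skeletal light chain, stood at 22.5 ± 3.23 RPM, again with 0 of 9 in cortex. Mybpc2 and Mybpc1, the fast and slow myosin-binding proteins C, stood at 15.2 ± 2.60 and 10.1 ± 2.66 RPM. Mybpc2 had a cortex peak in 2 of 9 libraries.

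Mylpf, the fast regulatory light chain, was the single gene of the set with an H3K4me3 promoter level called higher in cortex. Its cortex libraries had 39.0, 42.7, 48.4, 50.4, 40.6, 39.0, 49.8, 38.8 and 33.2 RPM and its gastrocnemius libraries 21.3 to 31.5 with a median of 24.9. The tissues did not overlap, and edgeR gave a log2 fold change of -0.44 ± 0.09 (SE; adjusted p = 0.000231), which turned to 0.40 when each peak was counted whole. The TSS of Tbc1d10b lies 431 bases away on the opposite strand, within the same window. At the second TSS of Mylpf, 127211608 on chromosome 7, H3K4me3 was found in 2 of 9 cortex libraries and in 10 of 10 gastrocnemius libraries at 25 RPM, and peaks covered 39.0% of the gene body in cortex against 100% in gastrocnemius.

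Myl2, the slow regulatory light chain, had H3K4me3 within 1 kb of its upstream TSS in 2 of 10 gastrocnemius libraries and none in cortex. The gastrocnemius level there was 0.323 ± 0.682 RPM (SD, n = 10). At another of its starts, 122100951 on chromosome 5, 9 of 10 gastrocnemius libraries had a peak at 3.43 ± 1.49 RPM (SD, n = 10). H3K27me3 lay at that start in 10 of 10 gastrocnemius libraries.

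The genes of the M-band and titin had 5 of 7 called toward gastrocnemius for each active mark. Of all genes tested, 3.38% were so called for H3K4me3 and 4.26% for H3K27ac. Ttn had H3K4me3 in 10 of 10 gastrocnemius libraries at 15.1 ± 2.93 RPM in a peak of median width 18000 bp, and none within 1 kb in cortex. The myomesins, which crosslink the thick filaments in the M-band, followed: Myom1 at 20.6 ± 2.97, Myom2 at 12.8 ± 3.34 and Myom3 at 9.30 ± 2 RPM, each with 0 of 9 in cortex. Capn3, a muscle protease that binds titin, was marked in 8 of 9 cortex libraries, at 0 to 4.46 RPM with a median of 2.17, against 9.79 to 21.2 in gastrocnemius. Cmya5 (myospryn) was marked everywhere and rose 1.61-fold in gastrocnemius (16.3 ± 1.80 against 21.4 ± 4.86 RPM, adjusted p = 5.36e-06).

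Of the 14 genes of the Z-disc, 7 were called toward gastrocnemius for H3K4me3, against 3.38% of all genes tested. H3K4me3 lay in at least 5 of 9 cortex libraries at 6 of them, which is 42.9% against 59.7% of all genes. Flnc, the filamin of striated muscle, changed the most among the 12 sarcomere genes with H3K4me3 in every library. Its cortex libraries had 6.47, 7.14, 5.94, 11.1, 7.73, 5.80, 9.44, 6.23 and 6.89 RPM, and its gastrocnemius libraries 30.3, 31.4, 31.5, 28.8, 39.7, 28.8, 50.9, 29.3, 47.9 and 29.6. The lowest gastrocnemius library was well above the highest cortex library, a 5.84-fold rise (log2 2.55 ± 0.13 SE, adjusted p = 2.01e-16, edgeR). Pdlim3, which tethers α-actinin, rose 2.46-fold from 12.2 ± 0.984 to 24.3 ± 2.70 RPM (adjusted p = 8.8e-13).

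Pdlim5, a relative that many tissues use, had the highest H3K4me3 level of the set in gastrocnemius, with 39.0, 46.3, 31.2, 22.2, 37.0, 21.7, 48.0, 54.6, 60.4 and 61.0 RPM. Cortex lay within that range at 31.7 to 36.0 RPM and the rise was 1.47-fold (adjusted p = 0.000374). Actn2, the α-actinin of every striated fiber, rose 1.45-fold (16.4 ± 3.90 to 18.9 ± 3.18 RPM, adjusted p = 0.00164). Actn3, the fast-fiber α-actinin, had 36.0 ± 6.50 RPM in cortex and 27.2 ± 5.13 in gastrocnemius and did not pass (log2 -0.08 ± 0.12, adjusted p = 0.589). It was called higher in cortex with library size alone (log2 -0.40) and in the libraries without a run number in their deposited name (log2 -0.31), and its change turned to 0.67 with whole peak counts. Zdhhc24 starts 759 bases from it on the opposite strand, and the body of Actn3 was covered to 2.12% in cortex and 38.0% in gastrocnemius.

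Ldb3 had H3K4me3 in 6 of 9 cortex libraries at no more than 2.19 RPM, against 21.8 to 35.7 RPM in gastrocnemius. The myozenins Myoz1, Myoz2 and Myoz3, which bind calcineurin at the Z-disc, had it in 10 of 10 gastrocnemius and 0 of 9 cortex libraries, at 18.2 ± 3.57, 5.50 ± 1.62 and 13.4 ± 3.02 RPM. Myot, Csrp3 and Xirp1 shared that pattern of calls. Xirp2 showed 12.6 to 35.4 RPM in gastrocnemius and a sliver of a peak in 4 cortex libraries, of which no more than 0.0123 RPM reached the window.

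Desmin, Des, forms the intermediate filaments that link the Z-discs, and Cryab is the small heat shock protein that guards them. Des had H3K4me3 in 5 of 9 cortex libraries, at up to 4.04 RPM, and in 10 of 10 gastrocnemius libraries at 18.8 to 28.9. Cryab rose 2.25-fold, from 18.1 ± 2.97 to 33.2 ± 7.47 RPM (adjusted p = 6.89e-10). Hspb2 starts 1029 bases from Cryab on the opposite strand.

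Fold changes at promoters could be tested only where every library of a mark had a peak. For H3K4me3 this held for 12 of the sarcomere genes. They are the genes that cortex also marks and do not stand for the set. edgeR with TMM scaling called 10 of them higher in gastrocnemius, against 25.4% of 13837 genes tested, and 1, Mylpf, higher in cortex, against 27.8%. For H3K27ac, 16 of 18 were called higher in gastrocnemius, against 23.6% of 13275 genes, and 1, Tnnc1, higher in cortex, against 25.4%. RPM values carry no TMM factor whereas the fold changes do. Scaling by library size alone moved the median of all genes to -0.33 on the log2 scale for H3K4me3 and to -0.29 for H3K27ac, and left 6 and 9 sarcomere genes higher in gastrocnemius and 2 and 1 higher in cortex. Over all genes that scaling called 1577 higher in gastrocnemius and 8468 in cortex of 13837 for H3K4me3, and 1042 and 6704 of 13275 for H3K27ac. The second H3K4me3 gene higher in cortex was Actn3. The H3K4me3 calls of Tnnc1, Tpm1, Actn2 and Pdlim5 were those lost. The share of all calls that were higher in gastrocnemius fell from 47.7% to 15.7% for H3K4me3 and from 48.2% to 13.5% for H3K27ac.

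Among the 18, the largest H3K27ac folds were those of Des (2.79-fold, adjusted p = 5.25e-11), Ldb3 (2.63-fold, adjusted p = 4.75e-10), Tnni2 (2.34-fold, adjusted p = 3.92e-10) and Flnc (2.25-fold, adjusted p = 1.29e-10). Pdlim5 did not pass (log2 0.11 ± 0.10, adjusted p = 0.386), but it did within 2.5 kb either side of the TSS (log2 0.62) and with whole peak counts (log2 3.31). The highest gastrocnemius levels were 12.4 ± 2.38 RPM at Myoz3, 11.8 ± 1.57 at Tnnt3, 11.4 ± 3.12 at Ldb3, 11.3 ± 2.32 at Cmya5 and 11.2 ± 1.52 at both Des and Mylk2. At Myoz3 the gastrocnemius libraries ran from 8.94 to 16.3 RPM while 2 of 9 cortex libraries had a peak, at 2.64 and 2.68. At Tnnt3 they ran from 9.28 to 14.5 while 5 of 9 cortex libraries had a peak, at 2.16 to 4.19. H3K27ac peaks over these genes were long in gastrocnemius, with a median width of 23300 bp against 7800 bp over all genes, and 6800 against 5200 bp in cortex. A peak's reads were shared evenly over its width, so a window inside a long peak takes the mean of that peak.

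H3K27me3 went the other way. Flnc had the highest cortex level, 16.1, 11.3, 7.90, 10.9, 14.4, 15.9, 17.7, 10.9 and 12.9 RPM, and no peak at the TSS in the 10 gastrocnemius libraries (adjusted p = 0.000236, Fisher's exact test). Myom3 followed at 10.2 ± 0.754 RPM, Mylk2 at 10.1 ± 1.25, Trim54, a ring-finger protein of the sarcomere, at 9.75 ± 2.98, and Acta1 at 9.73 ± 1.65, each in 9 of 9 cortex libraries. Trim54 and Mylk2 passed the test on calls, with 1 and 3 gastrocnemius libraries marked. Myom3 had 7 and Acta1 had 5 of 10 gastrocnemius libraries marked and did not pass (adjusted p = 0.456 and 0.121).

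Gastrocnemius kept H3K27me3 in at least 5 libraries at Myl2, Myl3, Myom3 and Acta1. The other 8 slow or cardiac genes of the isoform pairs had it in 0 to 2 libraries. Myl2 had it in 9 of 10 at 6.67 ± 3.32 RPM, beside 8.03 ± 1.39 in cortex. Myl3 had it in 6 of 10 at 3.55 ± 3.62, Myom3 in 7 of 10 at 3.49 ± 3.22 and Acta1 in 5 of 10 at 3.17 ± 3.48. The number of sarcomere genes marked per gastrocnemius library ran from 0 in replicate 2, with 3.65 M reads in peaks, to 12 in replicate 5, with 18.2 M, and was 9 in replicate 9 with 7.71 M. The part of depth in these calls was not tested. In cortex 23 to 29 of the genes were marked per library.

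**Figure D3:**
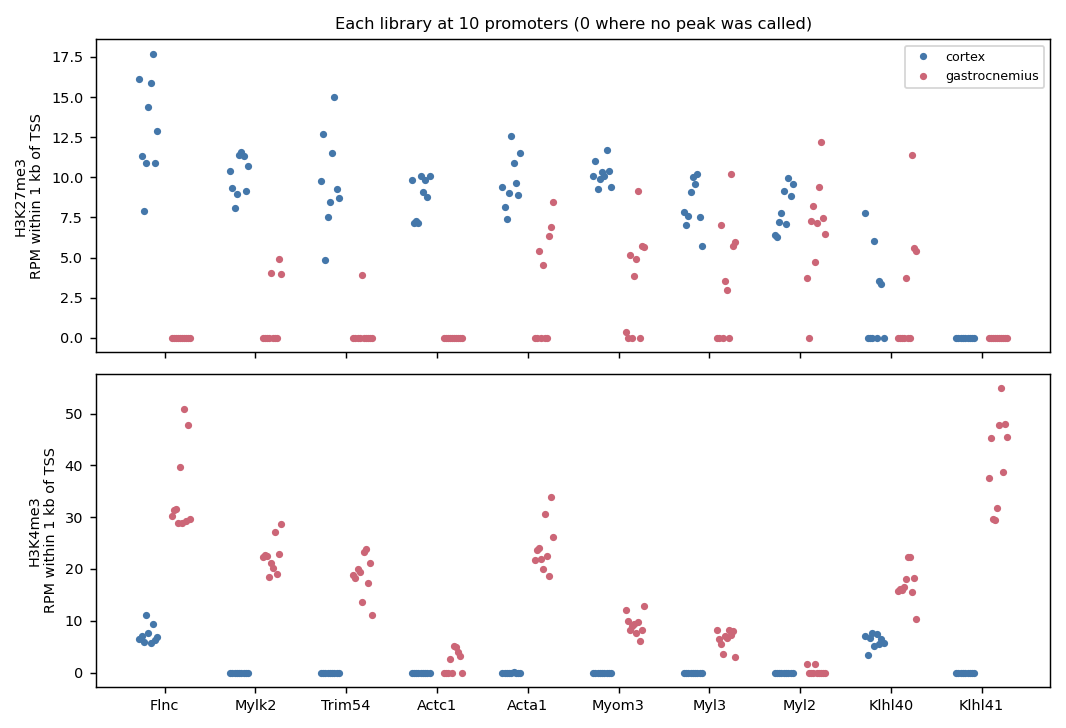
RPM within 1 kb of the TSS in each of the 9 cortex and 10 gastrocnemius libraries at 10 promoters, with H3K27me3 above and H3K4me3 below; a point at 0 is a library without a called peak. Flnc and Klhl41 separate fully for H3K4me3, Flnc has H3K27me3 in cortex alone, and Myl2 keeps H3K27me3 in 9 of 10 gastrocnemius libraries.

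Over the 3 marks together, with a mark counted where at least 5 libraries of a tissue had a TSS peak, cortex held 14 of the 46 genes with H3K27me3 alone, which is 30.4% against 9.50% of all genes. These were Actc1, Tnnc2, Tpm3, Myl2, Myl3, Mylk2, Mybpc1, Ttn, Myom1, Myom3, Trim54, Myoz3, Myot and Csrp3. A further 8 carried no mark at the TSS in cortex (17.4% against 23.6%), among them Neb, Klhl41, Myl1 and both leiomodins. The active pair H3K4me3 and H3K27ac without H3K27me3 was found at 8 genes (17.4% against 47.3%), namely Tnnc1, Klhl40, Mylpf, Capn3, Cmya5, Actn3, Pdlim5 and Cryab. All 3 marks were called at 7 (15.2% against 10.2%): Tpm1, Tpm2, Actn2, Ldb3, Flnc, Pdlim3 and Des. The cortex H3K4me3 calls were weak at Ldb3, in 6 of 9 libraries at no more than 2.19 RPM. At Des they were in 5 of 9 at up to 4.04 RPM.

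H3K27ac with H3K27me3 but without H3K4me3 was a rare state, at 1.65% of all genes in cortex, and 5 sarcomere genes (10.9%) were in it: Acta1, Tnni2, Tnnt3, Mybpc2 and Tcap. The libraries were made from bulk tissue, so the marks need not lie in the same cells. In gastrocnemius 40 of the 46 (87.0% against 45.8%) carried the active pair alone. Of the 14 genes with H3K27me3 alone in cortex, 10 were among those 40, and all 7 with the 3 marks in cortex were as well.

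Over gene bodies, from TSS to gene end, all 46 genes were higher in gastrocnemius for H3K4me3 by edgeR, against 33.6% of 17542 genes, and 0 higher in cortex, against 34.7%. H3K27ac was higher in gastrocnemius at 39 of 46, against 34.2% of 19357 genes, and higher in cortex at 2, Tnnc1 and Tpm3, against 38.6%. H3K27me3 was higher in cortex at 27 of 34, against 28.7% of 10965 genes, and higher in gastrocnemius at 0, against 27.2%. In the directions with 0 calls, 0 genes had a fitted change of any size, and DESeq2 also called 0. A library without a peak entered that fit at 0 reads. For H3K4me3, 21 of the 46 genes had no body peak in any cortex library, and for H3K27ac 10; for H3K27me3, 29 of the 46 had none in gastrocnemius. Such genes enter the fit through the tissue where they are marked, so these counts describe the set and carry no weight as a test. Sizes are given only for genes with peaks in both tissues. Among these, the H3K4me3 body count of Flnc had a log2 fold change of 3.11 (adjusted p = 9.34e-16), that of Tpm2 2.58 (adjusted p = 2.04e-13) and that of Acta1 1.41 (adjusted p = 2.64e-10). Where every library had a body peak, 16 of 16 sarcomere genes tested were higher in gastrocnemius for H3K4me3, against 32.8% of 14534 genes, and 0 in cortex, against 33.1%. For H3K27ac 18 of 24 were higher in gastrocnemius, against 34.8% of 14378 genes, and 2 in cortex, against 37.2%. For H3K27me3 only 2 could be tested, of which 1 was higher in cortex, against 31.3% of 3254 genes, and 0 in gastrocnemius, against 31.2%. With the mouse as a block in the fit over all bodies, 26 of 34 genes were higher in cortex for H3K27me3, beside 2820 of 10965 genes in all. The H3K27me3 calls of Tnni2, Tnnt1, Lmod2, Myot and Pdlim5 were lost and those of Tnni1, Tpm3, Tcap and Csrp3 gained. Tpm3 lost its H3K4me3 call.

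The body was covered by H3K27ac to a median of 92.5% in gastrocnemius against 20.7% over all genes, and to 26.2% against 19.6% in cortex. For H3K4me3 the medians were 40.5% against 4.81% in gastrocnemius and 0.322% against 3.50% in cortex. H3K27ac covered the whole body in all gastrocnemius libraries at 12 genes, among them Acta1, Tnni2, Tnnt3, Tnnc2, Mylpf, Myoz1, Tcap, Des and Cryab. The smallest coverage was 15.8% at Actc1, 37.1% at Myoz2, 41.3% at Tnni1, 56.4% at Xirp2 and 60.5% at Myom2. H3K27me3 covered a median of 23.4% of the body in cortex and 0% in gastrocnemius, against 0% over all genes in both tissues, so the gastrocnemius value is that of the genome. Flnc had 49.7% covered in cortex, Mylk2 90.5% and Actc1 90.5%, while Myl2 had 85.8% in cortex and 83.4% in gastrocnemius.

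**Figure D4:**
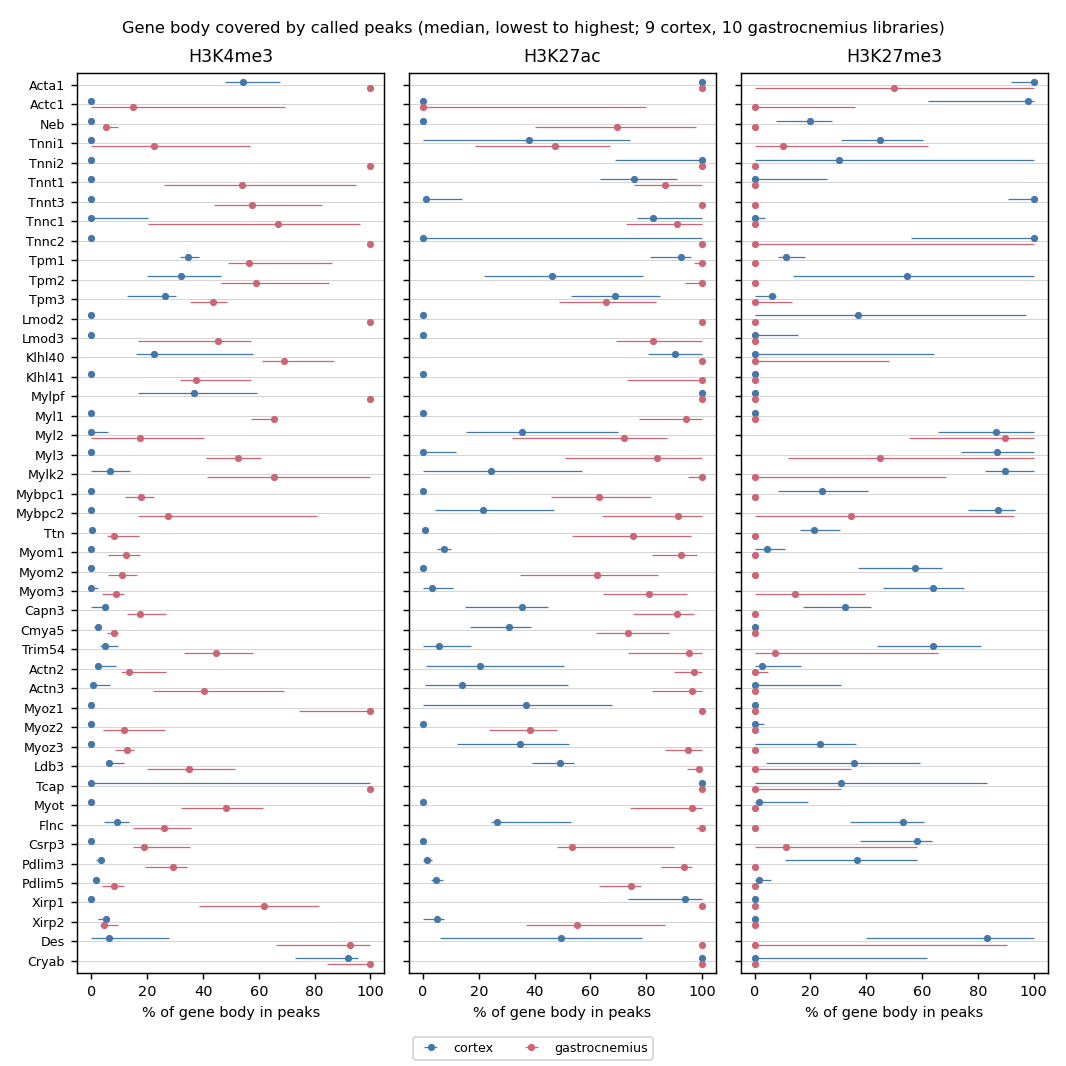
Percent of each gene body covered by called peaks, as the median with a line from the lowest to the highest library, for 9 cortex and 10 gastrocnemius libraries. Averaged over libraries, H3K27ac covers a median of 92.5% of the sarcomere gene bodies in gastrocnemius and 26.2% in cortex, and H3K27me3 covers 0% and 23.4%.

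Fast and slow isoforms were compared within each gastrocnemius library as the log2 ratio of RPM plus 1, over 11 pairs and both active marks, with an exact two-sided sign-flip permutation test over 10 libraries and Benjamini-Hochberg adjustment over the 22 comparisons. The smallest p this design allows is 0.00195. For H3K4me3 the fast or skeletal gene was higher in 10 of 11 pairs. The ratio was 4.41 ± 0.64 (SD) for Mylpf over Myl2, 3.50 ± 1.19 for Acta1 over Actc1, 2.74 ± 1.08 for Tpm1 over Tpm3 and 2.55 ± 0.74 for Tnni2 over Tnni1, each with the fast or skeletal gene higher in 10 of 10 libraries (exact adjusted p = 0.00286). A slow gene without a peak entered at 0 RPM, which held for Myl2 in 8 of 10 libraries, Actc1 in 5 of 10, and Tpm3, Tnni1 and Tnnt1 in 1 each, so the size of these ratios rests on the value of 1 added to RPM. With 5 added they were 2.5, 2.12, 1.97 and 1.74, in the same order. The size also rests on the TSS: with the start of the highest gastrocnemius level for each gene, an alternative chosen after seeing the data, Mylpf over Myl2 was 2.65 and Tpm1 over Tpm3 0.85, and the same 10 pairs passed. Tnnt3 over Tnnt1 stood at 1.92 ± 0.86, Myoz1 over Myoz2 at 1.58 ± 0.37 and Myl1 over Myl3 at 1.56 ± 0.46, also in 10 of 10.

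Smaller ratios were found for Mybpc2 over Mybpc1 (0.57 ± 0.40, exact adjusted p = 0.00506), Actn3 over Actn2 (0.49 ± 0.41, exact adjusted p = 0.0119) and Myom2 over Myom3 (0.41 ± 0.49, exact adjusted p = 0.0407). Mybpc2 over Mybpc1 fell to 0.10 and lost its call with whole peak counts, under which 9 other H3K4me3 ratios were larger than by the window, as for Tnnt3 over Tnnt1 at 4.17 and Tpm1 over Tpm3 at 4.56. Actn3 over Actn2 was 0.38 and lost it in the libraries without a run number in their name. The troponin C pair did not pass: Tnnc2 over Tnnc1 was 0.06 ± 0.45, with each gene higher in 5 of 10 libraries and a range of -0.64 to 0.81 (exact adjusted p = 0.674). The windows of Tnnc1, Actn3 and Mylpf lie near the neighbouring starts named above, and their share in these ratios was not tested.

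For H3K27ac all 11 pairs passed in the same direction. Acta1 over Actc1 stood at 2.63 ± 0.89, Mylpf over Myl2 at 1.60 ± 0.58, Tnnt3 over Tnnt1 at 1.05 ± 0.22, Tpm1 over Tpm3 at 1.01 ± 0.55 and Tnni2 over Tnni1 at 0.95 ± 0.38. Myl1 over Myl3 was 0.91 ± 0.27, Myoz1 over Myoz2 0.89 ± 0.26, Mybpc2 over Mybpc1 0.50 ± 0.61, Myom2 over Myom3 0.44 ± 0.21, Tnnc2 over Tnnc1 0.43 ± 0.19 and Actn3 over Actn2 0.11 ± 0.16. The last of these had an exact adjusted p of 0.0757 and Mybpc2 over Mybpc1 one of 0.0559, with the fast gene higher in 8 and in 6 of 10 libraries. When each peak was counted whole, the ratio of Tnnc2 over Tnnc1 turned to -0.38 and that of Mybpc2 over Mybpc1 to -0.14, and Actn3 over Actn2 lost its call at 0.28. The other 8 ratios rose with whole counts, as for Myoz1 over Myoz2 to 4.69 and Acta1 over Actc1 to 6.60, so that the sizes depend on how a long peak is counted. In the libraries without a run number Actn3 over Actn2 (0.15) and Mybpc2 over Mybpc1 (0.52) lost theirs. Actc1 had no H3K27ac peak in 7 of 10 libraries, and with 5 added to RPM the ratio of Acta1 over Actc1 was 1.23.

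**Figure D5:**
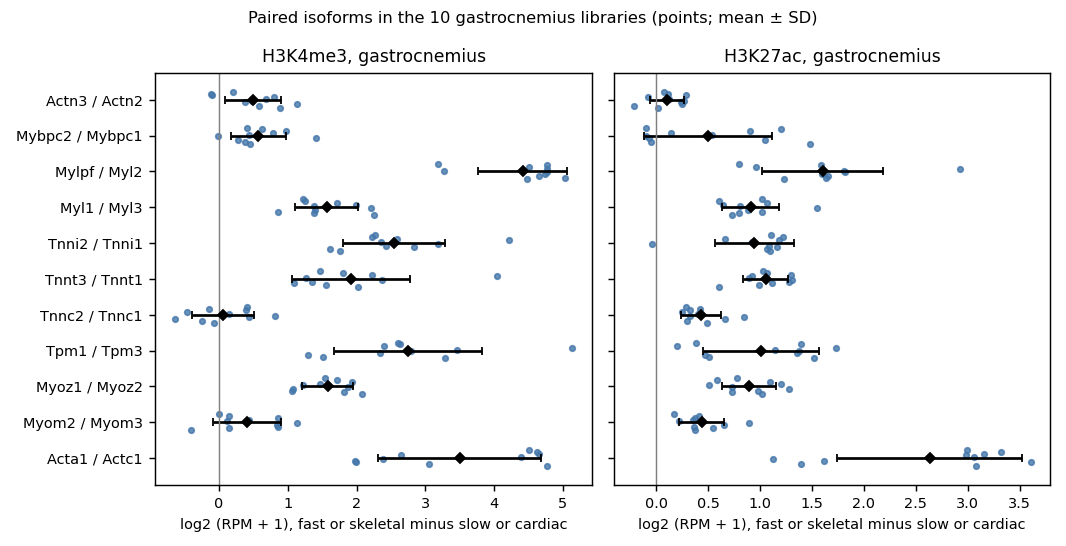
Log2 ratio of the fast or skeletal gene over the slow or cardiac gene at the TSS in each of the 10 gastrocnemius libraries, for 11 pairs and both active marks, with mean and SD. Ratios above 0 mean that the fast or skeletal gene is higher; the troponin C pair straddles 0 for H3K4me3 (0.06 ± 0.45).

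A list of 32 other sarcomere genes, held apart from the 46, was tested in the same way. H3K4me3 was called toward gastrocnemius at 13 of 28 tested and toward cortex at 0, against 3.38% and 5.11% of all genes tested. H3K27ac was called so at 7 and 2 of 32, against 4.26% and 9.45%, and H3K27me3 at 2 and 11 of 26, against 12.2% and 9.92%. The 2 H3K27ac calls toward cortex and the 2 H3K27me3 calls toward gastrocnemius were no larger a share than over all genes. Fold changes at promoters were less alike. Of 12 promoters of this list with H3K4me3 in every library, edgeR called 4 higher in gastrocnemius and 3 in cortex. Over all genes tested these shares were 25.4% and 27.8%. The median log2 change was -0.03, beside -0.02 over all genes and 0.64 for the 12 genes of the set. For H3K27ac 8 and 2 of 15 were called, against 23.6% and 25.4%. Trim63, the ubiquitin ligase of muscle atrophy, had H3K4me3 in 10 of 10 gastrocnemius libraries at 28.1 ± 4.82 RPM and 0 of 9 in cortex, with H3K27me3 in 8 cortex and 0 gastrocnemius libraries. Smyd1, a methyltransferase of myosin assembly, had 19.7 ± 2.71 RPM of H3K4me3 in 10 of 10 against 0 of 9. Nebl, the nebulin relative of the heart, was opposite: H3K4me3 fell by 1.59 on the log2 scale in gastrocnemius (46.5 ± 4.28 to 12.5 ± 2.08 RPM, adjusted p = 3.49e-15) and H3K27me3 was in 10 of 10 gastrocnemius and 0 of 9 cortex libraries.

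Some of the sarcomere genes that cortex marked, among them Tpm1, Tpm2, Flnc, Pdlim3, Des and Cryab, are also used by cells of the vessel wall or by glia. Of 6 markers of glia, 5 had H3K4me3 in at least 5 cortex libraries (83.3% against 59.7% of all genes). In gastrocnemius 2 had it in at least 5 (33.3% against 58.9%). Their sum was 50.7 to 68.5 RPM in cortex and 29.4 to 45.2 in gastrocnemius, of which Mbp held 35.8 ± 3.84 and 24 ± 4.64. Aldh1l1 went the other way, from 8.74 ± 1.28 in cortex to 15.8 ± 3.96 RPM (log2 1.16, adjusted p = 2.8e-08, edgeR). Gfap, Mog and Cx3cr1 had H3K4me3 in 9 of 9 cortex and 0 of 10 gastrocnemius libraries, and Aqp4 had no H3K4me3 peak in either tissue. Of 7 markers of smooth muscle cells and pericytes, 4 had H3K4me3 in at least 5 cortex libraries (57.1% against 59.7% of all genes) and 6 in at least 5 gastrocnemius libraries (85.7% against 58.9%). Their summed H3K4me3 was 20.5 to 29.3 RPM in cortex and 35.3 to 52.2 in gastrocnemius. Of the defining contractile markers, Myh11 had H3K4me3 in 9 of 9 cortex libraries, Acta2 in 4 of 9, and Tagln and Cnn1 in 0 of 9. H3K27ac was in 9 of 9 at Myh11 and Tagln, 4 of 9 at Acta2 and 2 of 9 at Cnn1, and H3K27me3 in 9 of 9 at Acta2 and Cnn1, 5 of 9 at Myh11 and 0 of 9 at Tagln. Of 8 markers of other muscle-resident cells, 6 had H3K4me3 in at least 5 libraries of each tissue, with a sum of 82.3 to 124 RPM in gastrocnemius and 73.0 to 104 in cortex, and their summed H3K27me3 was 19.5 to 47.0 RPM against 37.3 to 54.4. Ptprc had H3K4me3 in 0 of 10 gastrocnemius and 7 of 9 cortex libraries and Csf1r in 4 of 10 and 9 of 9. The satellite cell gene Pax7 had both H3K4me3 and H3K27me3 in 10 of 10 gastrocnemius libraries. The part of these cells in the values of the sarcomere genes was not tested.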

How the data were processed

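H3K4me3, H3K27ac and H3K27me3 ChIP-seq libraries of cortex and gastrocnemius were grouped by the labels. Per the labels and the study's methods, the authors aligned reads with bwa to mm10, filtered them with SAMtools and called peaks in each library with epic2. The deposited peak lists give read counts per peak (whole, not normalized) and the authors' epic2 score; the score was used only to rank peaks. Only called peaks are listed, so reads outside them were not analysed here.

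Each peak's count was shared over its length, and the part within 1 kb either side of the RefSeq TSS, or inside the gene body, was assigned to the gene and rounded. Library size was the reads in autosomal peaks. Promoter calls were tested by Fisher's exact test. Counts were tested by edgeR 4.0.16 (quasi-likelihood, TMM) for promoters called in every library and for bodies called in at least 3 libraries of 1 tissue, and isoform pairs by exact sign-flip permutation of log2(RPM + 1). All p-values were adjusted by Benjamini-Hochberg (threshold 0.1) over all features tested, or over the 22 pair comparisons. The statistics were tested on simulated data. Python 3.11.15, SciPy 1.17.1, R 4.3.3 and DESeq2 1.42.0 (as an alternative) were used. Replicates are mice, and p-values measure the spread between their libraries. Counting error was not given apart, and PCR reads are not independent molecules.

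The mouse was read from the deposited names, and 9 mice gave both tissues. The pairing therefore comes from the animal. Deviations of the same mouse in the 2 tissues correlated by a median of 0.00768 to 0.0242 except for H3K27me3 bodies (0.187, 9 of 9 pairs over 0.1). The smallest exact McNemar p over 9 mice is 0.00391.

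The genes, the lists and the tests were chosen with earlier results of these data known. Values in full were given for both genes of each pair, the 5 highest genes for each active mark in gastrocnemius, genes with H3K4me3 in at least 5 cortex libraries, the 5 highest for H3K27me3 in each tissue among genes marked in at least 5 of its libraries (4 such genes in gastrocnemius), and the 5 most and 5 least covered by H3K27ac; others were added as examples by role after their values were seen. Promoter sequences were matched by gene ID and TSS in RefSeq GRCm38.p6. The genes not matched were Neb, Tnni2, Tnnt3, Lmod3, Mylpf, Mylk2, Myom2, Actn3, Myoz1, Myoz3, Tcap, Myot, Xirp1 and Cryab. The sex of the mice was not used here.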

Additional observations from a re-analysis of the deposited data

Results flagged for a closer look

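In 88 groups of libraries examined, 10 had a library whose gap to its nearest neighbour was large against the whole range of the group, where chance gives about 1 in 20. Cortex replicate 9, the shallow H3K27ac library, was the highest in 3 of them, with 7.14 RPM at Tnni2 (nearest 5.05), 7.75 at Ldb3 (nearest 6.00) and 13.5 at Cryab (nearest 10.5). Without that library 18 of 21 H3K27ac promoters tested were called higher in gastrocnemius in place of 16 of 18, since more genes had a peak in every library left; the part of depth in its levels was not tested. Cortex replicate 3 was lowest at Tnnt1 with 0.686 RPM (nearest 2.87), and cortex replicate 7 at Flnc with 3.91 RPM (nearest 4.64), both for H3K27ac.

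In gastrocnemius, replicate 9 had the highest H3K4me3 at Mylpf with 31.5 RPM (nearest 26.3). Replicate 4 had the highest H3K4me3 ratio of Tnnt3 over Tnnt1, 4.04 on the log2 scale (nearest 2.38), as it had no peak at Tnnt1, and the highest H3K27ac ratio of Mylpf over Myl2, 2.93 (nearest 1.81). Replicate 6 had the highest H3K27ac ratio of Myl1 over Myl3, 1.55 (nearest 1.07), and the lowest of Tnni2 over Tnni1, -0.0347 (nearest 0.662).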

How the results depend on the processing

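Of 1348 alternative values of single-gene fold changes, 1302 kept direction and side of the threshold, 24 lost the call, 17 gained it and 5 changed sign; of 132 pair ratios, 125 were kept, 5 lost the call and 2 changed sign; of 168 counts, 153 stayed within 1.5 times the main count. The cause of the changes below was not tested except where the construction gives it. Library size alone, without TMM, left 6 sarcomere promoters higher in gastrocnemius and 2 in cortex for H3K4me3 (10 and 1 with TMM) and 9 higher in gastrocnemius for H3K27ac (16), and turned Klhl40 to -0.01 for H3K27ac. Promoters called in at least 1 library, with others at 0 reads, gave 43 higher in gastrocnemius for each active mark, by construction with more genes tested. Whole peak counts gave 0 promoters higher in cortex for H3K4me3 and 0 for H3K27ac, turned H3K4me3 at Tnnc1 to -0.01, at Mylpf to 0.40 and at Actn3 to 0.67, and H3K27ac at Tnnc1 to 1.21, and gave 1 H3K27ac pair with the slow gene higher, Tnnc2 over Tnnc1 turning to -0.38 and Mybpc2 over Mybpc1 to -0.14. In libraries without a run number in their name, 2 promoters were higher in cortex for H3K4me3 and 0 for H3K27ac, and 27, 15 and 14 calls were made for H3K4me3, H3K27ac and H3K27me3. Bodies called in every library gave 16 calls of 16 tested for H3K4me3, 18 of 24 for H3K27ac and 1 of 2 for H3K27me3, from fewer genes tested. The replicate block by mouse gave 12 H3K27me3 promoter calls toward cortex (20 without it), 21 for H3K4me3 (27) and 15 for H3K27ac (21), 10 and 1 H3K4me3 promoters and 16 and 0 H3K27ac promoters higher in gastrocnemius and in cortex, and 45, 39 and 26 body calls. Under the block the calls of H3K27ac at the Tnnc1 promoter, of H3K4me3 over Tpm3 and of H3K27me3 over Tnni2, Tnnt1, Lmod2, Myot and Pdlim5 were lost, and those of H3K27me3 over Tnni1, Tpm3, Tcap and Csrp3 were gained. Chosen after seeing the data, leaving out H3K27ac cortex replicate 9 gave 18 promoter calls, 18 promoters (of 21 tested, 18 before) and 40 bodies higher in gastrocnemius, leaving out H3K27me3 gastrocnemius replicate 5 gave 18 promoter calls and 28 bodies higher in cortex, the 9 mice without the block gave 10 and 16 promoters, and the start of the highest level gave 10 H3K4me3 and 11 H3K27ac pairs with the fast gene higher. Depth limits what an absent peak means, since reads below the calling threshold are not listed.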
